A study of Rattus norvegicus with 6 samples.

Results

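The genes described here are the 10 that encode the vascular endothelial growth factor (VEGF) family and its receptors: the ligands Vegfa, Vegfb, Vegfc, Vegfd and Pgf, the receptor tyrosine kinases Flt1, Kdr and Flt4, and the co-receptors Nrp1 and Nrp2. They were taken by name from a table of 32623 rat genes, each matched 1 row, and all 10 were expressed highly enough to enter the test with 13964 genes in all. RNA was sequenced from 6 samples of myocardium, described as from male rats of WT genotype, with no strain or age in the labels. In the ischemia group, 3 samples, the left anterior descending coronary artery of the ventilated, anesthetized animal was tied through a left chest incision, and the label gives 30 min. The sham group, 3 samples, carries the same time, and no tie is described for it. The labels do not say which part of the ventricle was taken or whether the tissue lay inside the ischemic zone. The question was how the family's transcripts differed between ischemic and sham myocardium.

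VEGF ligands are secreted dimers that act mainly on endothelial cells. Vegfa binds the receptors encoded by Flt1 and Kdr, and Kdr carries most of the growth and permeability signal, whereas Flt1 binds Vegfa tightly but signals weakly and also exists as a soluble decoy. Vegfb and Pgf bind Flt1 only, Vegfc and Vegfd bind Flt4, the receptor of lymphatic endothelium, and can bind Kdr, and the neuropilins hold ligands for the receptors and also bind class III semaphorins. Vegfa is a textbook gene of the response to low oxygen, in which hypoxia-inducible factor (HIF) binds a short core sequence. Each gene had a single row of values, so splice forms, among them soluble Flt1 and the forms of Vegfa, could not be told apart.

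The 250 bases before the annotated start of each gene were read from RefSeq (build GRCr8), in which all 10 genes matched and Vegfa had 2 starts, giving 11 windows. The windows shown are those of the 4 genes whose unadjusted edgeR p was under 0.05, and capitals mark the HIF core, ACGTG or GCGTG on either strand, so that CACGC is a core on the opposite strand.
Pgf, chr6:110557748-110557997, minus strand: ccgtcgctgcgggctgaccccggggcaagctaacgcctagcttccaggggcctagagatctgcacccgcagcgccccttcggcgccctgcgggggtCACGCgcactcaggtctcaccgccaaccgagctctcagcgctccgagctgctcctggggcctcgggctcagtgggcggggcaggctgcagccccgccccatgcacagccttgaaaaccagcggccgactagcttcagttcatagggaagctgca
Flt1, chr12:12333180-12333429, plus strand: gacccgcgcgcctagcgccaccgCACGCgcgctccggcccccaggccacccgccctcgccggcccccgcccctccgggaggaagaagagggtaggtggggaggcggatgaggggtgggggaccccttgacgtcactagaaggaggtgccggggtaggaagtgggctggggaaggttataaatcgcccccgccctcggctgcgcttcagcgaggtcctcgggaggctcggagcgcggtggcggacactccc
Flt4, chr10:34414584-34414833, plus strand: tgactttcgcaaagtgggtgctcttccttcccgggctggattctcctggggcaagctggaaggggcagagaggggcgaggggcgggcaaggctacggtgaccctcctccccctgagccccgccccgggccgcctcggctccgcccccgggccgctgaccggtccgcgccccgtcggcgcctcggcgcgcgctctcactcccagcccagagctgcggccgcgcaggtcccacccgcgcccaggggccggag
Nrp1, chr19:73256307-73256556, plus strand: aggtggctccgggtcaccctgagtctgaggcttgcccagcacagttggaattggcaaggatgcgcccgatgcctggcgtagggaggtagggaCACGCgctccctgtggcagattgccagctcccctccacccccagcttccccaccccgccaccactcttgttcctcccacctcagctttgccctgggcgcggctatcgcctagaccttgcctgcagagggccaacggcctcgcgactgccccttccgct
The core lay 154 bases before the start in Pgf, 227 in Flt1 and 158 in Nrp1, and these letters were not in the Flt4 window. In all, 6 of the 11 windows held it, the others being Vegfb, Nrp2 and Kdr, which had it at 145 and 103 bases before the start. It was in neither Vegfa window, nor in those of Vegfc and Vegfd. Sequence further upstream than 250 bases was not read, so a core there would have been missed. Of all 33469 rat windows of this length, 36.7% held the core. The GC box GGGCGG was in 7 of the 11 windows and in 30.5% of all windows, and the AP-1 motif TGANTCA was in 0 of 11 and in 6.3% of all. These matches describe the letters alone and show no binding.

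The libraries held 68529126 to 79591989 counts, and the mitochondrial genome took 15.4% to 21.4% of them. Sham replicate 1 had 4 counts on the Y-linked genes Eif2s3y and Kdm5d against 1762 to 4310 in the other libraries, which goes against its label as a male rat. Summed FPKM (fragment counts scaled to gene length and library size) of 6 atrial cardiomyocyte markers was 48457 and 39432 in sham replicates 1 and 3, against 252 in sham replicate 2 and 1288 to 9643 in ischemia, and Nppa, atrial natriuretic peptide, the most abundant of them, ranged from 67.7 to 33225 FPKM in sham and from 1251 to 7431 in ischemia. Ventricular genes went the other way among the sham samples. Myl3, a ventricular light chain, was at 796 and 1021 FPKM in sham replicates 1 and 3 against 9024 in sham replicate 2 and 3180 to 5780 in ischemia, and Irx4, a ventricular transcription factor, was at 1.4 and 1.85 against 18.2 and 2.88 to 13.6. Sham replicates 1 and 3 thus held strong atrial and weak ventricular signal, and the region of the heart and the group cannot be told apart in them. Summed FPKM of all 8 markers of the ventricular list, some of which the atria share, was 25068 to 42168 in sham and 12576 to 24495 in ischemia. With sham replicate 2 alone against the 3 ischemia samples, a comparison chosen after seeing the data in which the lone sample is assumed to vary like the others, no gene of the table passed edgeR and 1707 had an unadjusted p under 0.05. Across the table, 937 of the 13964 genes tested (6.71%) passed an adjusted p of 0.05 in edgeR's quasi-likelihood test, 723 being higher and 214 lower in ischemia. With any of the sham samples or ischemia replicate 3 left out, none of the genes passed, and 2605 did when ischemia replicate 1 was left out. In bulk tissue, fewer cells of a type and less RNA per cell cannot be told apart.

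Of the 10 family genes, 1 passed the test: Nrp1 fell, by 0.79 ± 0.16 (SE) on the log2 scale (adjusted p = 0.0455, edgeR). None passed in the higher direction, against 5.18% of all tested genes called higher and 1.53% called lower. At an unadjusted edgeR p under 0.05 there were 4, which were Nrp1, Pgf, Flt4 and Flt1, against 32.4% of all genes. FPKM of the groups did not overlap for 6 genes, Pgf, Flt1 and Flt4 being higher and Vegfb, Vegfc and Nrp1 lower in ischemia, against 38.6% of all genes. When libraries were instead scaled by the trimmed mean of M-values (TMM), as in the test, Flt1 and Vegfc overlapped and 4 genes remained apart, against 41.1%. The median log2 fold change of the 10 genes was -0.18, and that of all tested genes -0.0015.

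**Figure D1:**
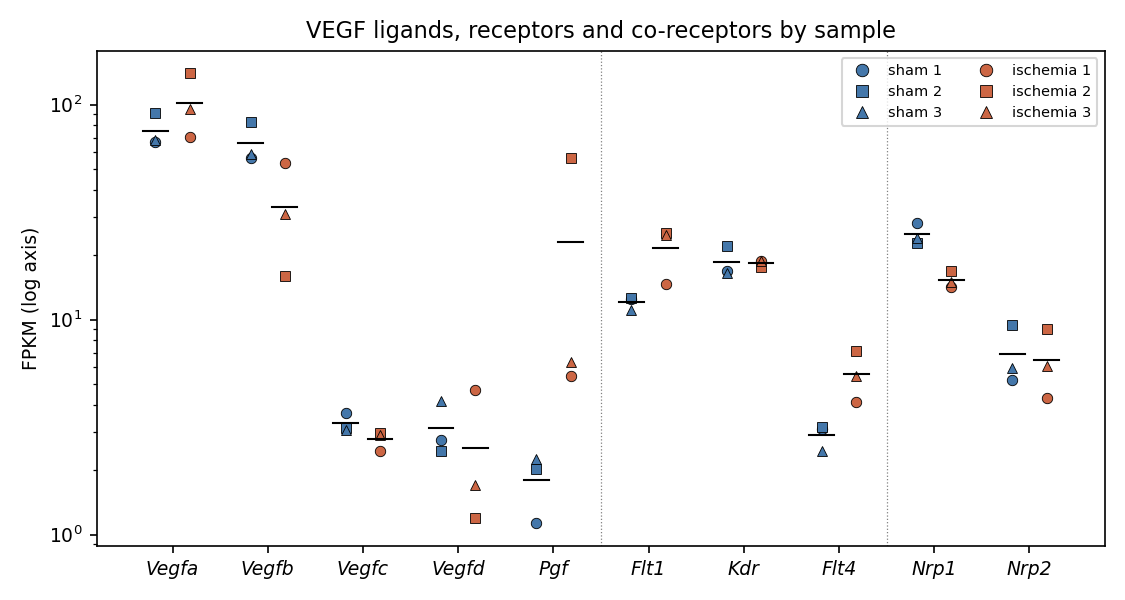
FPKM of the 10 family genes in each sample on a log axis, sham in blue and ischemia in orange, with the symbol shape giving the replicate number and a bar the group mean of 3 samples. Dotted lines part ligands, receptors and co-receptors. Pgf in ischemia replicate 2 (56.7) stands far above the other Pgf values, and all 3 Nrp1 values of ischemia lie below those of sham.

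Among the ligands, Pgf showed the widest difference and Vegfa and Vegfb were the most abundant. Pgf, placental growth factor, was at 1.13, 2.02 and 2.25 FPKM in sham replicates 1 to 3 and at 5.46, 56.7 and 6.37 FPKM in ischemia replicates 1 to 3. The lowest ischemia value was above the highest sham value, and ischemia replicate 2 was far above all others. The values rested on 135 to 256 counts in sham and 703 to 6637 in ischemia. Its log2 fold change was 3.48 ± 0.99 (SE, 11.2-fold), with an adjusted p of 0.0779 (edgeR), and did not pass. Leaving out ischemia replicate 2 gave 1.66 (adjusted p = 0.0789, edgeR). Against sham replicate 2 alone it was 3.12 (adjusted p = 0.433, edgeR). Leaving out ischemia replicate 1 gave 3.92 (adjusted p = 0.0378, edgeR), and leaving out sham replicate 1 gave 3.21 (adjusted p = 0.215, edgeR). Neutrophil and monocyte markers moved alongside. Their summed FPKM over 15 genes was 44.9 to 59.2 in sham and 1530, 4586 and 956 in ischemia replicates 1 to 3, highest in the library with the highest Pgf, and 12 of the 15 passed the test as higher, against 5.18% of all genes. Among them S100a9, a neutrophil calcium-binding protein, was at 242, 2224 and 241 FPKM in ischemia against 4.98 to 11 in sham. Summed FPKM of 8 resident macrophage markers was 203 to 287 in sham and 213 to 278 in ischemia, and the markers went both ways. Cd163, a scavenger receptor, passed as higher (log2 fold change 1.40, adjusted p = 0.0445, edgeR), and Mrc1 and Csf1r were also higher without overlap but did not pass. C1qa, the most abundant, was lower without overlap, at 67.3 to 92.2 FPKM in sham and 48.2 to 61.2 in ischemia. C1qc was also lower without overlap, at 59.2 to 78.9 and 48.0 to 58.9, and neither passed. For 6 platelet markers, of which 3 were tested and none passed, the sums were 22.4 to 56.5 and 63.8 to 173, nearly all of it Pf4, at 20.8 to 53.2 in sham and 61.6 to 170 in ischemia. The other tested platelet markers, Itga2b and Treml1, had log2 fold changes of -0.35 and -0.084. The part of these cells in the Pgf values was not tested. The Pgf row covers chromosome 6, 108994018 to 109004598, minus strand, as the deposited table lists it.

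Vegfa, the main angiogenic ligand, was at 67.0, 91.5 and 68.3 FPKM in sham and at 70.8, 140 and 95.2 FPKM in ischemia. The groups overlapped, since sham replicate 2 was above ischemia replicate 1. The log2 fold change was 0.30 ± 0.32 (SE; adjusted p = 0.546, edgeR), with values of 0.067 to 0.59 when single libraries were left out, and -0.16 against sham replicate 2 alone. A change in Vegfa RNA was therefore not detected among these samples, which does not show that its level was equal. Its row covers chromosome 9, 17340341 to 17355681, plus strand, and lists 6 transcripts.

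Vegfb, a ligand of Flt1 that is abundant in heart muscle, was at 56.4, 82.9 and 59.0 FPKM in sham and at 53.5, 16 and 30.9 FPKM in ischemia. All ischemia values lay below all sham values, ischemia replicate 1 only just so. The log2 fold change of -1.08 ± 0.50 (SE, 2.12-fold lower) did not pass (adjusted p = 0.183, edgeR). It was -0.73 without ischemia replicate 2 and -1.60 without ischemia replicate 1. Against sham replicate 2 alone it was -1.59 (adjusted p = 0.397, edgeR). Of the 8 muscle markers of the ventricular list none passed and 2 (25%) had groups apart, both lower, against 15.0% of all genes apart as lower and 38.6% apart in either direction. Actc1, cardiac actin, the most abundant, was at 10210 to 10827 FPKM in sham and 2654 to 4709 in ischemia (adjusted p = 0.0536, edgeR), while the log2 fold changes of the list ran from -2.38 to 0.86. The part of muscle RNA in the Vegfb values was not tested. The row covers chromosome 1, 222239022 to 222242644, minus strand.

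The lymphatic ligands were low and did not pass. Vegfc was at 3.67, 3.13 and 3.07 FPKM in sham and 2.44, 2.97 and 2.91 FPKM in ischemia, a log2 fold change of -0.34 ± 0.24 (SE; adjusted p = 0.351, edgeR). Its FPKM values did not overlap, but the gap was narrow and closed on the TMM scale. Vegfd was at 2.74, 2.46 and 4.2 FPKM in sham and 4.70, 1.19 and 1.70 FPKM in ischemia, so that ischemia replicate 1 held the highest value and the other two ischemia samples the lowest. Its log2 fold change was -0.36 ± 0.55 (SE; adjusted p = 0.665, edgeR) and lay between -1.19, without ischemia replicate 1, and -0.0095, without ischemia replicate 2, when single libraries were left out. The Vegfc row, on chromosome 16 from 40440207 to 40555576, minus strand, overlaps another row of the opposite strand. Whether the counting used strand is not given in the sources used here, so reads there are uncertain. Vegfd lies on chromosome X, 31816436 to 31851715, minus strand.

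The make-up of the ligand pool was compared within libraries. In sham, Vegfa took 49.9% to 51.2% and Vegfb 43.1% to 45.6% of the summed FPKM of the 5 ligands, nearly the same split in each sample. In ischemia replicates 1 to 3, Vegfb took 39.1%, 7.40% and 22.5%, and Pgf took 3.99%, 26.2% and 4.65%, against 0.863% to 1.65% in sham. The summed FPKM was 131, 182 and 137 in sham and 137, 216 and 137 in ischemia, so the totals overlapped while the shares did not for Vegfb, Pgf and Vegfa. Ischemia replicate 1 was the closest to sham in the Vegfa and Vegfb shares.

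**Figure D2:**
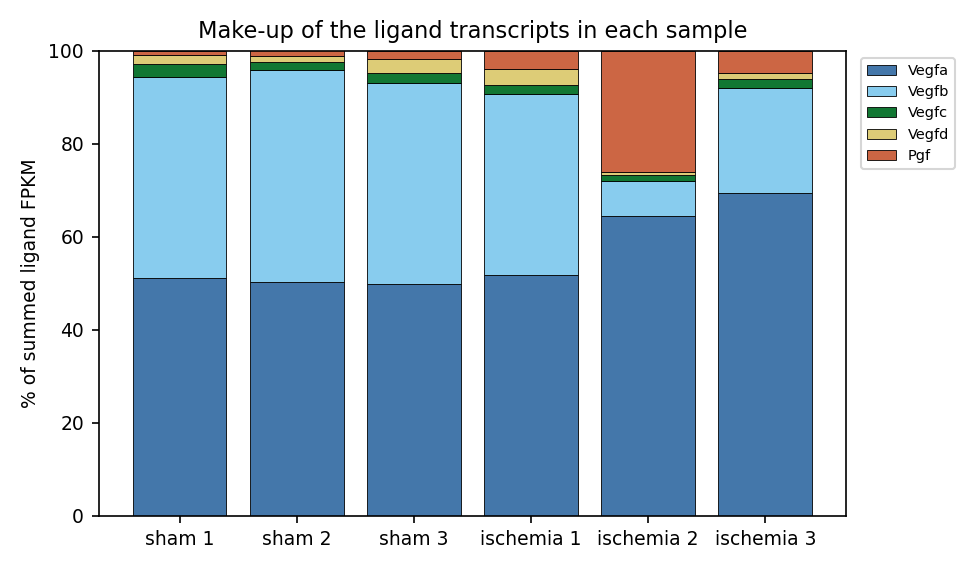
Share of each ligand in the summed FPKM of the 5 ligands, in percent, as 1 stacked bar per sample. The 3 sham bars are alike, with Vegfb between 43.1% and 45.6%, and the Vegfb share is lower in all 3 ischemia bars, least so in ischemia 1.

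The same was measured as the log2 ratio of 2 genes in a library, on log2(FPKM + 0.1), in which library scaling cancels apart from the pseudocount. Exact two-sided permutation tests over 3 against 3 samples cannot give a p below 0.1, and 9 ratios were tested, so none could pass 0.05. Vegfb to Vegfa averaged -0.20 ± 0.055 (SD, n = 3) in sham and -1.71 ± 1.36 in ischemia, 2.85-fold lower, without overlap (exact permutation p = 0.1, 0.150 after Benjamini-Hochberg adjustment). The sham values, -0.25, -0.14 and -0.21, were nearly equal, and the ischemia values were -0.40, -3.12 and -1.62. The difference of -1.51 was -0.81 without ischemia replicate 2 and -2.17 without ischemia replicate 1. Pgf to Vegfa averaged -5.36 ± 0.46 (SD, n = 3) in sham and -2.95 ± 1.43 in ischemia, 5.30-fold higher, also without overlap (exact permutation p = 0.1, adjusted 0.150), and the difference fell from 2.41 to 1.58 without ischemia replicate 2. Vegfc to Vegfa overlapped between the groups (difference -0.63, exact permutation p = 0.200, adjusted 0.225).

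Of the receptors, Flt1 and Flt4 were at higher FPKM in ischemia and Kdr overlapped fully, and none passed the adjusted threshold. Flt1 was at 12.5, 12.6 and 11.1 FPKM in sham and 14.7, 25.3 and 24.7 FPKM in ischemia. Ischemia replicates 2 and 3 stood well above sham and ischemia replicate 1 just above it. The log2 fold change was 0.73 ± 0.27 (SE, 1.66-fold; adjusted p = 0.124, edgeR), and it passed only without ischemia replicate 1, at 0.93 (adjusted p = 0.0439, edgeR). Against sham replicate 2 alone it was 0.47. On the TMM scale ischemia replicate 1 (6.71 log2 CPM, counts scaled to library size) fell below sham replicate 2 (6.77). The row covers chromosome 12, 9034308 to 9205905, plus strand.

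Flt4 was at 3.09, 3.18 and 2.45 FPKM in sham and 4.13, 7.18 and 5.46 FPKM in ischemia, and the groups did not overlap on either scale. Its log2 fold change was 0.83 ± 0.27 (SE, 1.77-fold) with an adjusted p of 0.102 in edgeR and of 0.0452 in DESeq2, an alternative count test. Against sham replicate 2 alone it was 0.50. Among 6 lymphatic endothelial markers, Pdpn, a membrane glycoprotein that other cells also carry, was the only one to pass (log2 fold change 2.31, higher, adjusted p = 0.0430, edgeR), against 5.18% of all genes called higher. A log2 fold change above 0 was seen in 3 of 6, against 49.9% of all genes. Reln was also higher without overlap, at 0.574 to 0.734 FPKM in sham and 0.918 to 3.01 in ischemia (log2 fold change 1.20, adjusted p = 0.130, edgeR). Prox1, the transcription factor that defines lymphatic endothelium, was lower without overlap, at 2.73 to 4.38 FPKM in sham and 0.758 to 1.85 in ischemia (log2 fold change -1.54, adjusted p = 0.0656, edgeR). Ccl21, the most abundant, was at 68.4 to 79.4 in sham and 37.6 to 88.8 in ischemia. The summed FPKM was 89.0 to 115 in sham and 119 to 187 in ischemia, of which Pdpn gave 10.7 to 16.6 and 34.9 to 129. Whether the amount of lymphatic tissue bears on Flt4 was not tested. The Flt4 row lies on chromosome 10, 35078726 to 35121599, plus strand.

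Kdr was at 16.9, 22.1 and 16.5 FPKM in sham and 18.8, 17.6 and 18.8 FPKM in ischemia. The ischemia values lay inside the sham range, and the log2 fold change of -0.12 ± 0.25 (SE; adjusted p = 0.760, edgeR) turned to 0.16 without sham replicate 2, the highest sample, and was -0.56 against that sample alone. Limma on FPKM also gave a value just above 0. Kdr lies on chromosome 14, 34727623 to 34787183, plus strand, and its row lists 3 transcripts.

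**Figure D3:**
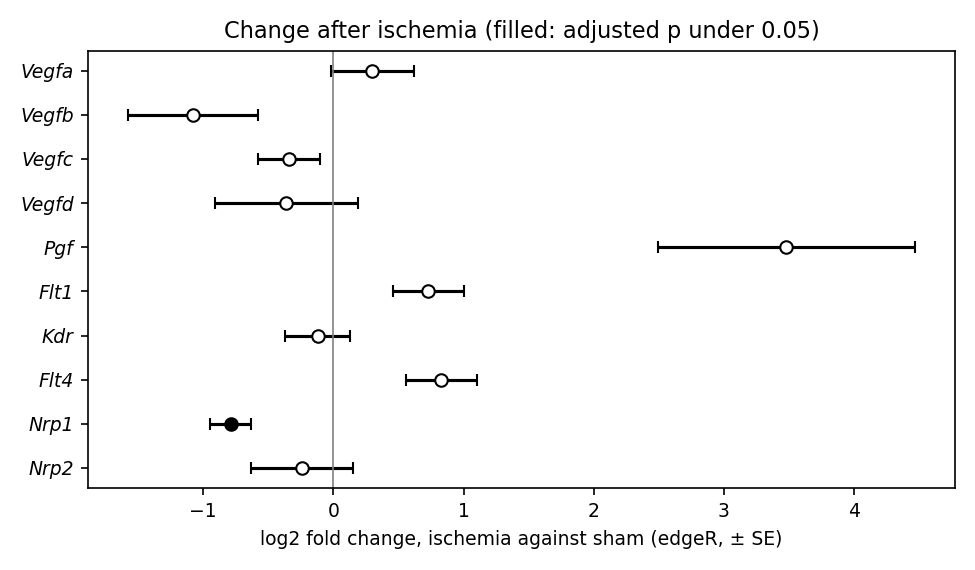
Log2 fold change of each family gene, ischemia against sham (edgeR), with bars of 1 SE. Nrp1, the filled point, is the only gene with an adjusted p under 0.05, and Pgf has both the highest value (3.48) and the widest error (0.99).

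Within libraries, Flt1 and Kdr stood in the other order in 2 of the 3 ischemia samples, and Flt4 was the lowest receptor in all 6. Kdr took 51.9% to 58.3% of the summed receptor FPKM in sham and 49.9%, 35.2% and 38.5% in ischemia, and Flt1 took 33.3% to 38.6% in sham and 39.1%, 50.5% and 50.4% in ischemia. Kdr exceeded Flt1 in all sham samples and in ischemia replicate 1, and Flt1 exceeded Kdr in ischemia replicates 2 and 3. The log2 ratio of Flt1 to Kdr was -0.60 ± 0.19 (SD, n = 3) in sham and 0.19 ± 0.47 in ischemia, 1.72-fold higher, without overlap (exact permutation p = 0.1, adjusted 0.150). The nearest samples were ischemia replicate 1 at -0.35 and sham replicate 1 at -0.43. Flt4 to Kdr was -2.63 ± 0.19 (SD, n = 3) in sham and -1.74 ± 0.44 in ischemia, 1.85-fold higher, without overlap (exact permutation p = 0.1, adjusted 0.150).

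Nrp1, the co-receptor of Vegfa and of semaphorins, was at 28.0, 22.8 and 24.0 FPKM in sham and 14.2, 16.9 and 15.0 FPKM in ischemia. The highest ischemia value lay well below the lowest sham value, and the spread inside each group was small, from 9744 to 11935 counts in sham and from 5954 to 7070 in ischemia. This was a 1.73-fold fall. Its direction held in all 18 alternatives, between -0.88 and -0.67, and it passed in 6 of them. Against sham replicate 2 alone it was -0.88 (adjusted p = 0.394, edgeR), with all 3 ischemia values below that sample's 22.8 FPKM. The adjusted p was 0.170 without sham replicate 1, 0.0947 without sham replicate 2 and 0.140 without sham replicate 3 (edgeR). It was 0.0691 without ischemia replicate 2 and 0.150 without ischemia replicate 3 (edgeR). The call was thus lost without each of these libraries, the log2 fold change then lying between -0.87 and -0.75. Without any of the sham samples or ischemia replicate 3, no gene of the table passed, so the loss there was not particular to Nrp1. Without ischemia replicate 1 it still passed (adjusted p = 0.0484, edgeR). Nrp1 is carried by endothelial cells and also by muscle, stromal and nerve cells. Summed FPKM of 8 fibroblast markers was 730 to 2345 in sham and 339 to 747 in ischemia, that of 9 mural cell markers was 260 to 937 and 127 to 319, and that of 6 epicardial markers was 51.8 to 114 and 5.11 to 33.6. In edgeR 1 of the mural markers, the channel subunit Abcc9, passed as lower (adjusted p = 0.0351) and none of the others did, against 1.53% of all genes. FPKM groups were apart as lower for 3 of the fibroblast, 2 of the mural and 5 of the epicardial markers, against 15.0% of all genes. The most abundant of each, Col3a1, Acta2 and Msln, had log2 fold changes of -2.22, -1.78 and -2.22. Within the lists, log2 fold changes ran from -2.70 to 2.36 (Postn) for fibroblasts and from -2.15 to 0.81 (Cspg4, higher without overlap) for mural cells, and from -6.02 to -0.25 for the epicardium. Their part in the Nrp1 fall was not tested. The row covers chromosome 19, 61332351 to 61485858, plus strand, lists 2 transcripts and has a microRNA row inside it.

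Nrp2, the co-receptor of the lymphatic ligands, was at 5.26, 9.46 and 5.95 FPKM in sham and 4.33, 9.0 and 6.06 FPKM in ischemia. Each group held a single high sample and the groups overlapped almost fully (log2 fold change -0.24 ± 0.39 SE, adjusted p = 0.680, edgeR). Without sham replicate 2 the log2 fold change was 0.20, and against that sample alone it was -0.87. The log2 ratio of Nrp2 to Nrp1 overlapped between the groups (difference 0.59, exact permutation p = 0.300, adjusted 0.300), and the difference was -0.031 against sham replicate 2 alone. The summed FPKM of both co-receptors was 30.0 to 33.3 in sham and 18.5 to 25.9 in ischemia. Nrp2 lies on chromosome 9, 69497121 to 69612087, plus strand.

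The receptors were also set against 15 endothelial markers in the same library, since a receptor can move with the amount of endothelial RNA. None of the 15 passed the test, against 6.71% of all genes. In FPKM, 10 overlapped between the groups, the other 5 (33.3%) being near the 38.6% of all genes apart. Their summed FPKM was 404 to 442 in sham and 531 to 609 in ischemia, without overlap. The mean log2 level used for the ratios did overlap, at 4.04 in sham replicate 2 and 4.03 in ischemia replicate 1. These 2 libraries were the only ones with reads of the marker Cldn5, which raised their mean log2 level relative to the others. Eng, the most abundant, was at 93.5 to 137 FPKM in sham and 158 to 180 in ischemia (adjusted p = 0.137, edgeR), and Esam, Egfl7 and Sox17 were also higher without overlap (log2 fold changes 1.13, 0.64 and 0.56), while Emcn, endomucin, was the only marker lower without overlap (-0.52). In all, 11 of the 15 had a log2 fold change above 0, against 49.9% of all genes. Cldn5 was listed without reads in sham replicates 1 and 3 and ischemia replicates 2 and 3, and Robo4 in ischemia replicate 1, although the other libraries held 360 and 2669 counts of Cldn5 and 511 to 1386 of Robo4. Relative to the mean log2 level of the 15 markers, Nrp1 was at 1.16, 0.48 and 0.91 in sham and at -0.20, -0.058 and -0.17 in ischemia, 1.98-fold lower without overlap (exact permutation p = 0.1, adjusted 0.150). With 13 markers, leaving out Cldn5 and Robo4, the difference was -1.04 and the groups still did not overlap. Kdr was lower by 0.28 on the log2 scale without overlap over 15 markers (exact permutation p = 0.1, adjusted 0.150), and by 0.33 with overlap over 13 (exact permutation p = 0.200). Flt1 was higher by 0.50 with overlap over 15 markers (exact permutation p = 0.200, adjusted 0.225) and by 0.45 without overlap over 13 (exact permutation p = 0.1). For Kdr and Flt1 the separation of the groups thus depended on those 2 genes, and for Nrp1 it did not.

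**Figure D4:**
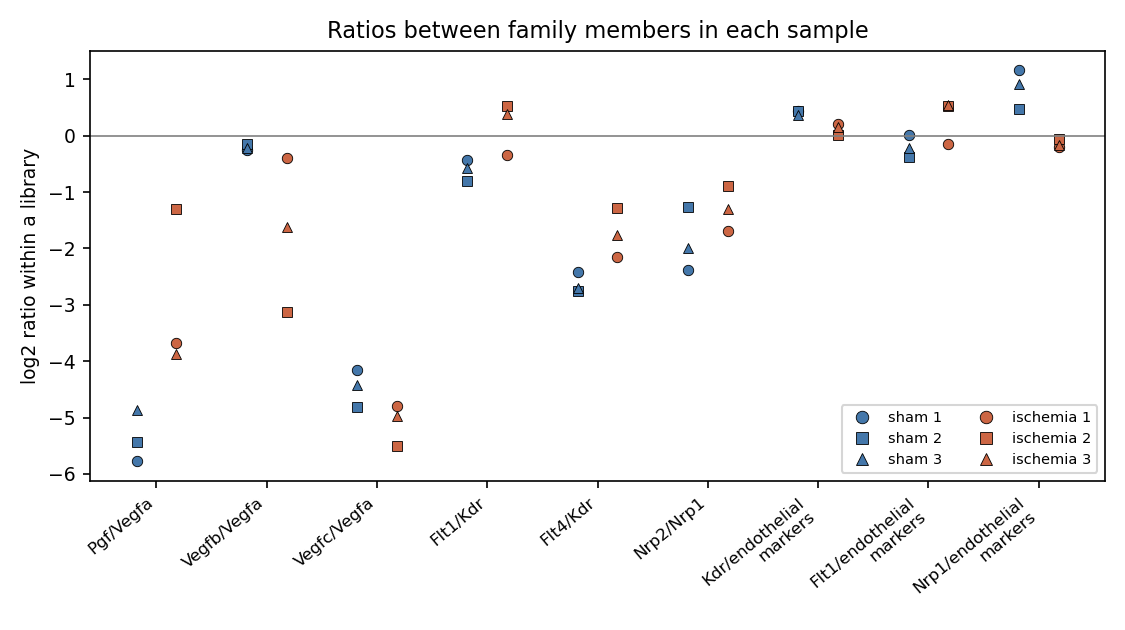
Log2 ratios within each library, sham in blue and ischemia in orange, with the symbol shape giving the replicate number. Endothelial markers stand for the mean log2 level of 15 genes, and the groups do not overlap for Pgf to Vegfa, Vegfb to Vegfa, Flt1 to Kdr, Flt4 to Kdr, and Kdr and Nrp1 against the markers.

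Ranked by mean FPKM, which is per gene length, the sham order was Vegfa (75.6 ± 13.7 SD, n = 3), Vegfb (66.1 ± 14.6), Nrp1 (25 ± 2.72), Kdr (18.5 ± 3.15), Flt1 (12.1 ± 0.873), Nrp2 (6.89 ± 2.26), Vegfc (3.29 ± 0.330), Vegfd (3.13 ± 0.938), Flt4 (2.91 ± 0.401) and Pgf (1.80 ± 0.591). Vegfa and Vegfb overlapped in range, as did Vegfc with Vegfd and Vegfd with Flt4, and all other neighbours were apart. In ischemia Vegfa remained at the top (102 ± 34.8), apart from Vegfb (33.5 ± 18.9). Pgf (22.8 ± 29.3) stood next, a place that rests on ischemia replicate 2, since at 5.46 and 6.37 FPKM in the other two ischemia samples it was below Flt1, Kdr and Nrp1. Its range overlapped with those of Vegfb and Flt1 (21.6 ± 5.95). Flt1 overlapped with Kdr (18.4 ± 0.675), and Nrp1 (15.4 ± 1.38) had dropped below both and was apart from Kdr. Nrp2 (6.46 ± 2.36) overlapped with Flt4 (5.59 ± 1.53), and Vegfc (2.78 ± 0.290) and Vegfd (2.53 ± 1.90) came last and overlapped.

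For each family gene, the 2 genes with the most similar profile were found among 8149 tested genes of at least 5 mean FPKM, by the root mean square difference of centred log2 CPM over the 6 samples. Pgf was nearest to Slc2a1, which encodes a glucose transporter, at 0.364, and to Pstpip1, a cytoskeletal adaptor of blood cells, at 0.369. Slc2a1 was at 4.15, 5.60 and 5.46 FPKM in sham and at 12.4, 197 and 29.9 FPKM in ischemia, with its peak in the same library as Pgf. Vegfb was nearest to Dele1, a mitochondrial stress protein, at 0.0773, and to Ndrg2 at 0.0782. Nrp1 was nearest to Stx7, a syntaxin of endosomes, at 0.0706, and to Hccs, which attaches heme to cytochromes, at 0.0826. Flt1 was nearest to Larp1 (0.0897) and Tlnrd1 (0.121), Flt4 to Myo9b (0.0835) and Slc28a2 (0.0993), Kdr to Prickle3 (0.0620) and Mrpl45 (0.0631), and Vegfa to a mitochondrial ribosomal RNA (0.0627) and Arap3 (0.0678). Vegfc lay at 0.0469 from Ccnd2, Vegfd was nearest to Net1 (0.165) and Hrct1 (0.18), and Nrp2 to Sox7 (0.138) and Pald1 (0.143). These values are a description over 6 samples that share their libraries and depth.

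Downstream of the receptors, 24 signal transducers were all tested, of which 2 rose, 1 fell and 21 did not pass, with a median log2 fold change of 0.24 that turned to -0.084 without ischemia replicate 2. Hspb1, the small heat shock protein Hsp27 on which the study centred and which stress kinases phosphorylate, was at 315, 197 and 366 FPKM in sham and 1517, 2264 and 3293 in ischemia (log2 fold change 2.96 ± 0.39 SE, adjusted p = 0.0272, edgeR). Sphk1, a sphingosine kinase downstream of Kdr, was at 0.430, 0.215 and 0.488 FPKM in sham and 1.28, 4.58 and 3.39 in ischemia (2.96 ± 0.53 SE, adjusted p = 0.0372, edgeR). Cav1, the caveolar coat protein abundant in endothelium, fell from 189, 194 and 220 FPKM to 94.0, 53.4 and 77.8 (-1.50 ± 0.29 SE, adjusted p = 0.0422, edgeR). All 3 had groups without overlap, as had 13 of the 24 (54.2%), against 38.6% of all genes apart, 5.18% called higher and 1.53% called lower. The table's own annotation of the VEGF signaling pathway held 57 genes, Vegfa and Kdr among them. Of the 52 tested, 3 rose and none fell, against 5.18% and 1.53% of all genes, so the calls were near the background. FPKM groups were apart for 33 (63.5%), against 38.6%. Beside Hspb1 and Sphk1 the third was Rac2, the Rac GTPase of blood cells, at 12.0, 15.7 and 17.4 FPKM in sham and 41.7, 119 and 52.1 in ischemia (2.10 ± 0.41 SE, adjusted p = 0.0422, edgeR), highest where neutrophil markers were. The highest log2 fold change there, Ptgs2 at 4.59, and the lowest, Pik3r2 at -1.0, did not pass (adjusted p = 0.0750 and 0.114, edgeR).

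Among extracellular proteins that bind, cleave or free VEGF, 3 of 8 tested rose and none fell, against 5.18% of all genes called higher and 1.53% lower. Thbs1, thrombospondin, an inhibitor of angiogenesis, was at 2.40, 1.29 and 3.71 FPKM in sham and 33.0, 342 and 103 in ischemia (log2 fold change 5.92 ± 0.95 SE, adjusted p = 0.0334, edgeR). Adamts1, a protease that binds Vegfa, was at 9.27, 3.26 and 7.54 FPKM in sham and 20.7, 67.9 and 43.4 in ischemia (2.66 ± 0.50 SE, adjusted p = 0.0397, edgeR). Mmp9, a matrix protease abundant in neutrophils, was listed without reads in sham replicate 1 and at 0.144 and 0.0316 FPKM in the other two, against 4.65, 30.5 and 5.73 in ischemia (adjusted p = 0.0444, edgeR). The lowest, Mmp2, did not pass (-1.04, adjusted p = 0.174, edgeR). These 3 genes and the summed neutrophil and monocyte markers given with Pgf were all highest in ischemia replicate 2. The order of the other ischemia samples differed. The 3 genes were higher in replicate 3 than in replicate 1, and the marker sum was 956 in replicate 3 and 1530 in replicate 1. The part of these cells in the values was not tested.

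Among neuropilin-binding semaphorins and plexins, 1 of 10 tested rose and none fell, against 5.18% of all genes called higher and 1.53% lower, with a median log2 fold change of -0.57. Sema3f, a class III semaphorin that binds Nrp2, was at 2.98, 3.68 and 4.07 FPKM in sham and 8.54, 14.3 and 15.8 in ischemia (1.75 ± 0.30 SE, adjusted p = 0.0361, edgeR). The lowest was Sema3b at -1.39, which did not pass (adjusted p = 0.0709, edgeR).

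Of 19 HIF target genes other than the family, 3 rose, none fell and 16 did not pass, against 5.18% of all genes called higher and 1.53% lower. The median was 1.48, and 16 of 19 had a log2 fold change above 0 against 49.9% of all genes, while 7 (36.8%) had FPKM groups apart, near the 38.6% of all genes. Angptl4, a lipase inhibitor, was at 0.736, 1.30 and 2.82 FPKM in sham and 140, 76.5 and 99.1 in ischemia (5.96 ± 0.61 SE, adjusted p = 0.0246, edgeR). Ddit4, an inhibitor of mTOR signaling, was at 15.2, 13 and 16.4 FPKM in sham and 44.9, 59.1 and 29.5 in ischemia (1.48 ± 0.24 SE, adjusted p = 0.0327, edgeR). The lowest, Mxi1 at -0.10, did not pass (adjusted p = 0.766, edgeR). The median of this list fell to 0.43 without ischemia replicate 2.

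No gene passed among 12 endothelial genes known to be induced by VEGF, among 16 genes of the angiopoietin-Tie and Notch systems, or among 5 PDGF genes, and 2, 2 and 1 of them had an unadjusted edgeR p under 0.05, which 32.4% of all genes had. The medians were 0.43, -0.046 and -0.29, that of the angiopoietin and Notch genes turning to 0.054 with total-count scaling. Without ischemia replicate 2 the median of the VEGF-induced genes was -0.047. In these lists the ends were Egr3 at 2.32 (adjusted p = 0.0787) and Esm1 at -0.22 (0.890), Angpt2 at 1.20 (0.294) and Angpt1 at -1.66 (0.182), and Pdgfa at 0.016 (0.972) and Pdgfc at -1.75 (0.143), all from edgeR. Over all these lists, the table's own included, 10 of 127 tested genes outside the family rose and 1 fell, against 5.18% and 1.53% of all genes. None of them passed when any of the sham samples or ischemia replicate 3 was left out.

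**Figure D5:**
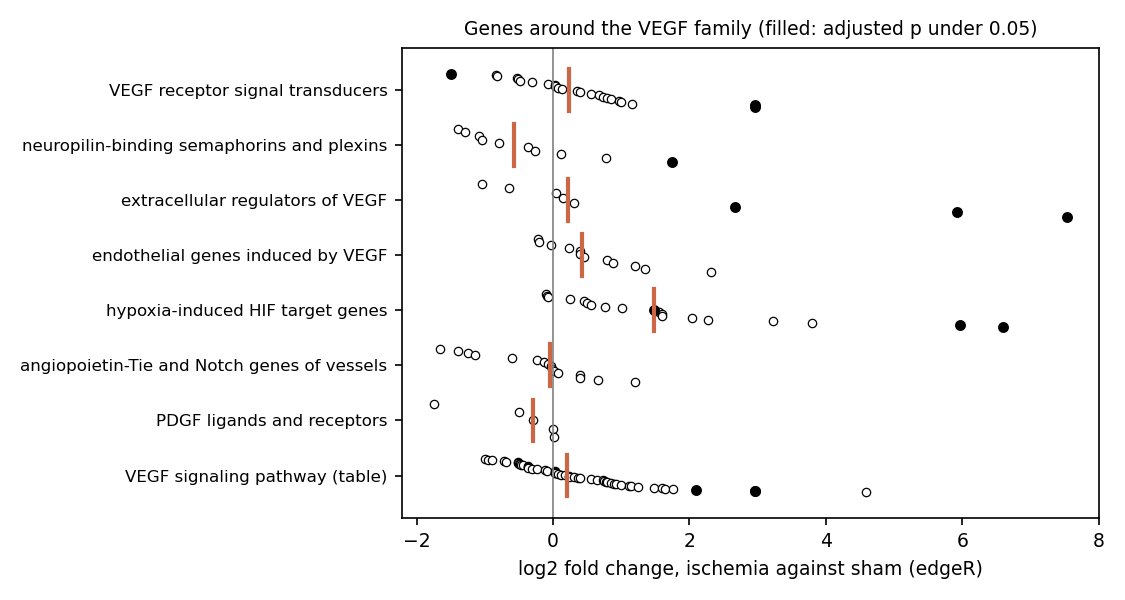
Log2 fold change (edgeR, ischemia against sham) of each tested gene in 8 lists around the VEGF family, 1 row a list, filled where the adjusted p was under 0.05, with an orange bar at the list's median. The median of the HIF targets, 1.48, is the highest, and the filled points on the right include Mmp9, Angptl4 and Thbs1. Without ischemia replicate 2 (not shown) that median was 0.43, and that of the extracellular regulators of VEGF was 0.45.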

How the data were processed

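Total RNA of 3 sham and 3 ischemia samples of rat myocardium had been sequenced with a kit that keeps strand. Raw read counts per gene and FPKM values of each sample were deposited by the authors in 1 table. The submitters' processing notes name STAR and HTSeq without versions. The build and annotation behind the table's positions are not given in the sources used here. Genes without reads are listed at 0.0001 FPKM, and for 99.8% of 11233 genes with at least 100 counts in every sample the deposited counts and FPKM were related by 1 factor per sample, within 1%. Total counts were 68529126 to 79591989 per sample, at which 3 counts correspond to 0.0377 to 0.0438 CPM (counting error only).

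Counts of genes that averaged 0.5 FPKM or more were tested after TMM scaling with the quasi-likelihood test of edgeR 4.0.16 (R 4.3.3), ischemia against sham with no covariate, Benjamini-Hochberg adjustment over 13964 genes and a threshold of 0.05. The test was checked on simulated counts. Ratios within a library used log2(FPKM + 0.1) and exact permutation tests. DESeq2 1.42.0, limma 3.58.1, other scalings and filters, the replicate number as a block and each sample left out were alternatives, and dropping Cldn5 and Robo4 and comparing sham replicate 2 alone with ischemia were added after seeing the data. Figures used matplotlib 3.10.9. The family and the lists were chosen with earlier results of these data known, and the study itself had selected Pgf and Hspb1 from these samples. Named were all family genes, genes of the pathway lists past the threshold, the highest and lowest of each pathway list, the most abundant gene of each marker list, and the 2 nearest profiles. Of the genes so named, 2 are not reported here. The other markers and the Y-linked genes were chosen after their values were seen. The labels give replicate numbers but do not say how the samples were obtained from animals. The p-values thus measure the spread between these samples, which may be technical in part. Among the sham samples it also held the differences in Y-linked counts and atrial markers given above. Among the ischemia samples it held the differences in atrial markers. The replicate numbers did not pair the samples. Promoter windows came from RefSeq (GRCr8). Other assays of the study were not used here.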

Additional observations from a re-analysis of the deposited data

How the results depend on the processing

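Over all genes, 723 were called higher and 214 lower. DESeq2 gave 2071 and 1742 (54.3% higher against 77.2%), total-count scaling gave 83 lower genes (86.0% higher) and no expression filter gave 93 lower genes. Leaving out 1 sample gave 0 to 1490 higher and 0 to 1115 lower genes (57.2% higher without ischemia replicate 1). At 0 calls, 3020 to 3809 genes still had an unadjusted edgeR p under 0.05. In the family, 0 genes were called higher, against 1 with DESeq2 (Flt4) and 0 to 2 with 1 sample left out (Pgf and Flt1, without ischemia replicate 1). The 1 gene called lower, Nrp1, became 0 with total counts, no filter and limma at each of 3 pseudocounts (adjusted p = 0.0643 to 0.0717), and 0 to 1 with 1 sample left out. Of the genes of the 7 hand-made lists, which leave out the table's own pathway list, 9 higher and 1 lower became 17 and 8 with DESeq2, 0 lower with no filter, and 0 to 15 and 0 to 5 with 1 sample left out. Kdr changed sign with limma, to 0.0067, 0.0059 and 0.0068 at pseudocounts of 0.1, 1 and 0.01, and ranged from -0.25 to 0.16 with 1 sample left out, as did Nrp2, from -0.49 to 0.20. The cause of these shifts was not tested, beyond the fewer samples or other gene sets by construction. Against sham replicate 2 alone, 0 genes were called higher and 0 lower in the table, in the family and in the lists, Vegfa was at -0.16, and the log2 ratio of Nrp2 to Nrp1 was -0.031. The other 8 ratios kept their direction in every alternative run. DESeq2 gave no adjusted p for Pgf.

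With the replicate number as a block, 0 genes were called higher and 0 lower in the table, in the family and in the lists, and 3349 genes had an unadjusted edgeR p under 0.05. Nrp1 was then at -0.79 (adjusted p = 0.143) and Pgf at 2.74 (adjusted p = 0.127). Same-numbered samples correlated at -0.056, -0.094 and -0.20 in their deviations from the group means, so the numbers gave no pairing.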
